A study of Mus musculus with 12 samples.

Results

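The RNA of regulatory T cells (Treg) from spleen was compared with that of Treg from lymph node, in the 6 Treg libraries of a series of 12. The other 6 libraries hold naive CD4+ conventional T cells (Tcon) of the same organs and are used only where stated. The Treg were sorted as CD4+CD25+FOXP3+ cells from mice with the reporter allele B6.Cg-Foxp3tm2Tch/J (FOXP3-IRES-GFP), whose Foxp3 locus also makes a green fluorescent protein, and the labels name no other allele. The mice had received SAH-FOXP3(229-259)C (SAH here), a hydrocarbon-stapled peptide of the FOXP3 protein, at 25 mg/kg into the peritoneum daily for 2 days, or vehicle (DMSO in the sample titles). Spleen gave 2 SAH libraries (05 and 06) and 1 vehicle library (04), and lymph node gave 2 SAH libraries (02 and 03) and 1 vehicle library (01). It is not stated whether libraries came from separate or pooled mice, whether the organs of 1 mouse were paired, or which lymph nodes were taken. A p-value here therefore reflects the variation among these libraries, which may be technical. Mouse age and sex were not among the labels.

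Treg are CD4+ T cells that depend on the transcription factor FOXP3 and restrain other immune cells. Those of lymphoid organs include recirculating cells with high CCR7, and more differentiated effector Treg that carry receptors for entry into tissue. The spleen filters blood, and its T cells arrive without crossing the high endothelial venules through which T cells enter lymph nodes, which drain tissues. The comparison asks how Treg RNA differs between a blood-filtering and a tissue-draining organ, with treatment as a term of the same model.

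All 10405 gene symbols of the Treg table were tested. Their values, called CPM in the file headers, are reads of a gene scaled to the size of the library. The Treg libraries held between 40061754 and 45320889 reads in these genes, as rebuilt from the steps between low values, and correlations of log2 values between libraries were 0.985 to 0.997.

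The defining Treg genes were present in both organs. Foxp3 (X:7573644-7595245 in mm10) was at 669, 655 and 715 CPM in spleen libraries 04, 05 and 06, against 682, 697 and 726 CPM in lymph node libraries 01, 02 and 03. These ranges overlapped, and the log2 difference, spleen minus lymph node, was -0.05 (95% interval -0.16 to 0.07, adjusted p = 0.611 by limma with Benjamini-Hochberg adjustment over all genes, as for every adjusted p below). Cd4 was at 718 to 752 CPM in spleen against 696 to 712 CPM in lymph node (adjusted p = 0.452). Ikzf2, the gene of the Treg factor Helios, was at 927 to 1112 CPM in spleen against 934 to 1030 CPM in lymph node (adjusted p = 0.844). For Ctla4, an inhibitory receptor of Treg, the values were 1676 to 1811 CPM in spleen against 1327 to 1676 CPM in lymph node (log2 difference 0.22, adjusted p = 0.0693, but 0.00584 without library 06). None of these 4 genes passed the test, and the CD25 gene Il2ra, which did, is described with the Treg core genes.

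Genes of other blood cells were higher in the spleen Treg libraries. Jchain, the joining chain of secreted antibodies, was at 108, 72.1 and 119.9 CPM in spleen libraries 04, 05 and 06, against 0.147, 0.849 and 0.625 CPM in lymph node libraries 01, 02 and 03 (log2 difference 6.03, adjusted p = 7.54e-11). Lyz2, the lysozyme gene of myeloid cells, was at 21.6, 38.2 and 52.2 CPM in spleen, against 1.29, 1.33 and 0.901 CPM in lymph node (log2 difference 4.06, adjusted p = 5.41e-09). The organs did not overlap in either gene. Slc4a1, the anion exchanger of the red cell membrane, was at 12.1, 8.41 and 109.7 CPM in spleen, against 0.0489, 0.0653 and 0.025 CPM in lymph node (log2 difference 4.51, adjusted p = 0.000111), so that SAH library 06 stood far above the other 2 spleen libraries. The same library was highest in Hbbt1, a beta-globin symbol, at 36.5, 17 and 279 CPM in spleen against 0.171, 0.653 and 0 CPM in lymph node (log2 difference 5.53). Without library 06 the log2 differences were 3.37 for Slc4a1 and 4.32 for Hbbt1, and without library 05 they were 5.41 and 6.58. Every gene analysed reached 1 CPM in at least 3 libraries. Jchain, Slc4a1 and Hbbt1 reached it in the 3 spleen libraries only, so that these genes had to differ.

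Over all 10405 genes, 8.71% were higher in spleen and 6.01% lower, for comparison with the marker counts here and in the next paragraph. Of 9 measured B cell genes 7 were higher in spleen and 0 lower, and their summed level was 111 to 152 CPM in spleen against 66.6 to 83.1 CPM in lymph node. Of these, Cd79a was at 3.36 to 5.08 CPM against 1.72 to 2.43 CPM, and the class II genes H2-Aa, H2-Ab1 and H2-Eb1, which dendritic cells also express, had log2 differences of 2.66, 2.42 and 2.25. Of 11 myeloid and dendritic genes 9 were higher and 1 was lower, among them Csf1r (2.70), Mpeg1 (2.60), Tyrobp (1.82) and Itgam (1.45). Their sum was 331 to 361 CPM in spleen against 328 to 352 CPM in lymph node, most of it from Ctss, which was lower in spleen at 193 to 214 CPM against 269 to 296 CPM. Of 7 red cell genes 5 were higher (3 without library 02), with sums of 227, 207 and 660 CPM in spleen libraries 04, 05 and 06 against 165 to 177 CPM in lymph node. Of these lists, 1 B cell gene, 3 myeloid and dendritic genes and 3 red cell genes reached 1 CPM in spleen only and had to be higher.

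Of 3 plasma cell genes, Jchain was higher and Derl3 lower (Derl3 not without library 02), with sums of 173 to 217 CPM in spleen against 83.6 to 101 CPM in lymph node. Of 8 CD8 and natural killer genes 4 were higher and 1 lower, with sums of 53.6 to 55.3 CPM in spleen against 51.9 to 52.9 CPM in lymph node. Jchain and 1 of these 8 genes reached 1 CPM in spleen only and had to be higher. The neutrophil list had 1 measured gene, Mmp9, which was higher in spleen except without library 04. The 2 platelet genes and the 1 stromal gene did not pass, and 0 of 9 gamma delta T cell genes were measured. Defining markers such as Ms4a1 and Pax5 of B cells, Adgre1 of macrophages, S100a8 of neutrophils, Cd8a of CD8 T cells and Col1a1 of stroma are outside the 10405 symbols analysed here. The part of other cells in the differences below was not tested. In bulk samples, fewer cells of a type and less RNA per cell cannot be told apart.

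**Figure D1:**
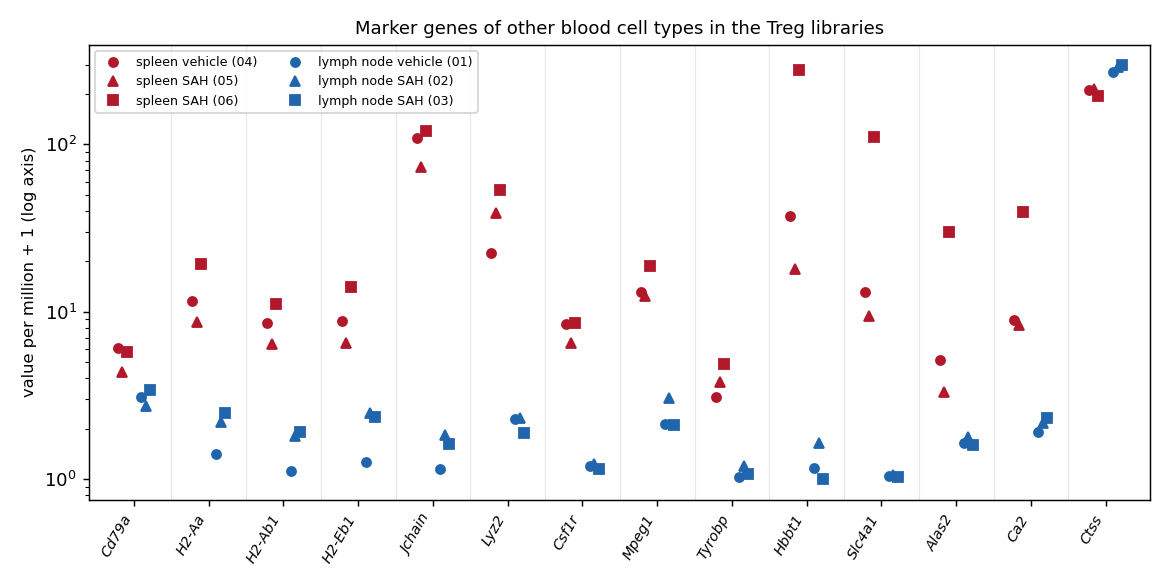
Marker genes of other blood cells in the 6 Treg libraries, as CPM + 1 on a log axis, with spleen points (red) left of lymph node points (blue) and 1 symbol shape per library. Jchain was at 72.1 to 119.9 CPM in spleen against 0.147 to 0.849 CPM in lymph node, Slc4a1 and Hbbt1 were highest in spleen library 06, and Ctss was lower in spleen.

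Across all genes, spleen Treg had more RNA of inducible HSP70 genes and of several cholesterol synthesis, effector and activation genes than lymph node Treg, and less of the integrin gene Itgae, the chemokine receptor gene Ccr6 and several interferon response genes. Of 10405 genes, 906 were higher in spleen (8.71% of all tested) and 625 were lower (6.01%), 1531 in all (14.7%), and 2940 had an unadjusted p below 0.05. Most differences were small: 185 of the higher and 97 of the lower genes passed 1.5-fold, 74 and 25 passed 2-fold, and 22 and 2 passed 4-fold. The median log2 difference was -0.0028 over all genes, and the median size was 0.32 over the called genes. The 3 spleen values lay above all 3 lymph node values in 1753 genes (16.8%) and below them in 1575 (15.1%). Of the 1531 called genes, 1530 had the same sign in the vehicle libraries alone and in the SAH libraries alone, with the costimulatory ligand gene Cd86 as the exception. The fitted difference is built from these same differences, so calling a gene favours such agreement, which is no separate replication. The vehicle difference rests on 1 library per organ.

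The total was 783 without library 01, 768 without 02 and 789 without 04. With each library scaled to the same total, the split became 718 higher and 834 lower, and the median log2 difference was -0.031. Every gene in the table reached 1 CPM in at least 3 libraries. In 20 genes this held in all 3 spleen libraries and in no lymph node library, so that these genes had to differ, and the reverse held for 4 genes. Jchain, Csf1r, Tyrobp, Hbbt1, Slc4a1, Alas2 and H2-Ab1 among the markers, and Aqp1 and Lilr4b described below, are among the 20.

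The 2 genes more than 4-fold lower in spleen were the related apolipoprotein L genes Apol9b and Apol9a, which interferon induces in mouse cells. Apol9b (15:77729039-77736382) was at 9.04, 8.81 and 8.02 CPM in spleen libraries 04, 05 and 06, against 38.7, 45.2 and 43.4 CPM in lymph node libraries 01, 02 and 03. Apol9a (15:77403789-77411135) was at 6.0, 5.65 and 5.7 CPM in spleen, against 27.3, 31.8 and 29.6 CPM in lymph node. Every spleen value lay below every lymph node value, with log2 differences of -2.17 (95% interval -2.34 to -2.0, adjusted p = 7.12e-10) and -2.17 (-2.35 to -1.99, adjusted p = 8.72e-10). Reads may have been split between these near-identical copies.

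Interferon response genes are switched on when interferon activates STAT and IRF factors, which bind short promoter elements with spaced GAAA repeats. Of 46 measured genes of this list, 0 were higher in spleen Treg (8.71% over all genes), 15 were lower (6.01% over all genes) and 31 did not pass. Of the 46 log2 differences 38 were below 0, and their median was -0.16, against -0.0028 over all genes. Ifit3, whose product restricts viral RNA, was at 13.3, 15.9 and 9.31 CPM in spleen libraries 04, 05 and 06, against 22.3, 44.3 and 27.3 CPM in lymph node libraries 01, 02 and 03. Its close relative Ifit3b was at 8.7, 10.4 and 6.45 CPM in spleen, against 15.2, 30.6 and 18 CPM in lymph node. Spleen values lay below lymph node values in both genes, where SAH library 02 was the highest. The log2 differences were -1.19 (95% interval -1.60 to -0.78, adjusted p = 0.000701) and -1.19 (-1.59 to -0.78, adjusted p = 0.000607), and reads may again be split between these genes.

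Usp18, a protease that damps interferon receptor signalling, was at 21.3, 21.9 and 18.2 CPM in spleen, against 29.1, 35.6 and 27.6 CPM in lymph node, with no overlap (log2 difference -0.56, adjusted p = 0.0011). It kept its call in all 6 fits with a library left out. Ifit1 (log2 difference -0.57, adjusted p = 0.00999) and the oligoadenylate synthetase-like gene Oasl2 (-0.63, adjusted p = 0.0123) were not called without library 02, where the adjusted p was 0.128 and 0.0952. The number of lower genes in the list was 4 without library 02, 8 without 01, 9 without 04 and 21 without 05, and without 06 it was 12, with 2 genes higher. In Tcon, where 468 of 9886 genes were called (4.73%), 324 higher (3.28%) and 144 lower in spleen (1.46%), 5 of 47 measured interferon genes were lower and 0 were higher.

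The promoter windows of Apol9b, Ifit3 and Ifit3b are shown because these genes, with Apol9a, led the interferon-inducible genes lower in spleen by size, and they were chosen after their values were seen. Each window runs 5′ to 3′ on the strand of the gene, from 250 bases before to 50 bases after the start in the RefSeq annotation of GRCm38.p6. Capitals mark matches to GAAANNGAAA on either strand, here read as TTTCNNTTTC.
Apol9b: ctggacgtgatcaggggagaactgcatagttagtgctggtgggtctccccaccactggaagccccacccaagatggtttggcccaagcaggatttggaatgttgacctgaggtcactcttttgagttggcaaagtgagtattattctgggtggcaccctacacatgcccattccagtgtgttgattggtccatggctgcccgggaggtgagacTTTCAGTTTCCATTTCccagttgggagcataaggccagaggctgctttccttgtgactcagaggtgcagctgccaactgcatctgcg
Ifit3: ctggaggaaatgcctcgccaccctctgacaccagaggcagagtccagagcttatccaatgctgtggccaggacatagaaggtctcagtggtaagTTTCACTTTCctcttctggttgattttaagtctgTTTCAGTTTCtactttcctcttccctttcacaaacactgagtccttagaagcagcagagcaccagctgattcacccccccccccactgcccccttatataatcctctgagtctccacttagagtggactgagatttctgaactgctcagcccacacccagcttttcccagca
Ifit3b: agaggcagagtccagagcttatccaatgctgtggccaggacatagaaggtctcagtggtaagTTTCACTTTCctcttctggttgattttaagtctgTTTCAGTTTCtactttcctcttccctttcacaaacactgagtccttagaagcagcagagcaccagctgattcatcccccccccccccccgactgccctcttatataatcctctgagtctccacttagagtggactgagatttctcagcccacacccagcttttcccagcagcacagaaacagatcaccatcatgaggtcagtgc

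These windows lie at chr15:77728822-77729121, chr19:34583279-34583578 and chr19:34607707-34608006, all on the plus strand. Apol9b holds 2 overlapping matches that begin 37 and 31 bases before the start used here. Another annotated start of Apol9b places the same matches 86 and 80 bases before it. Ifit3 holds 2 separate matches, 156 and 122 bases before its start, and Ifit3b holds 2 at 188 and 154 bases. The window shown for Apol9b and the first annotated window of Apol9a are identical over the 278 bases in which they align without gaps. The windows of Ifit3 and Ifit3b share 201 of 268 bases (75.0%), also aligned without gaps. The latter windows differ in length within the alignment, as in the run of C, so that bases after it are out of register and the share understates their likeness. GAAANNGAAA was present in 1131 of 32851 promoter windows (3.44%), and in 3.92% of the 8043 genes of the Treg table with a window. Of 35 interferon response genes with a window 21 held it, which were 5 of the 11 lower in spleen and 16 of the 24 not called. A match is a description of these letters and no evidence of binding.

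**Figure D2:**
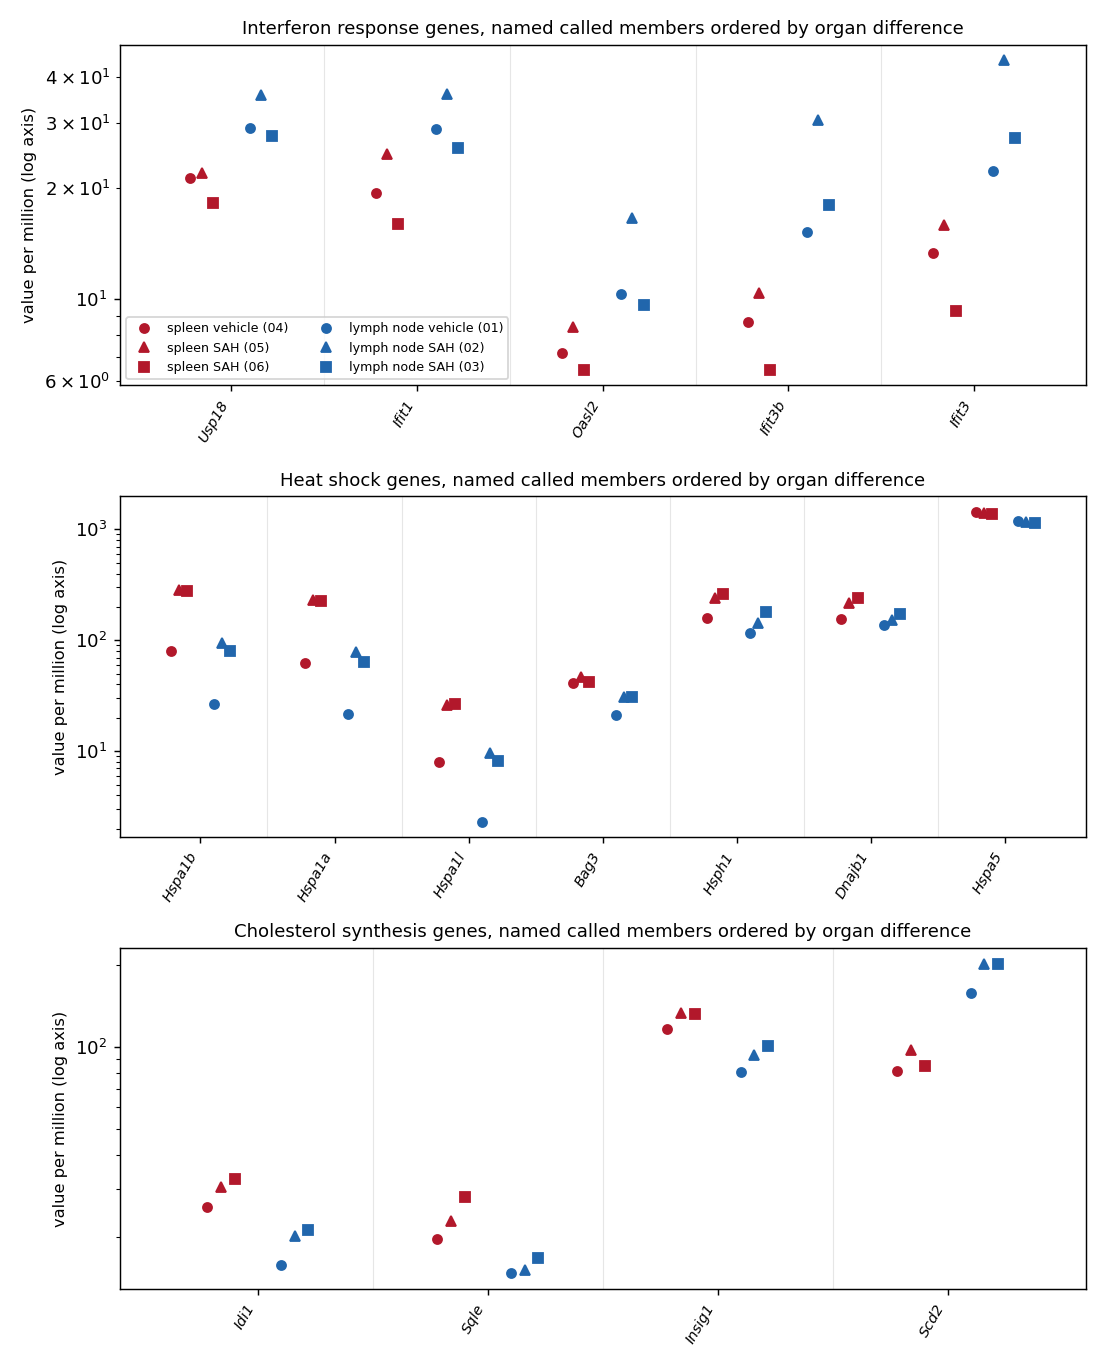
CPM on a log axis of the called members named in the text of the interferon response, heat shock and cholesterol synthesis lists in the 6 Treg libraries, spleen (red) left of lymph node (blue), ordered from the most positive to the most negative organ difference. The interferon genes have negative differences that end with Ifit3b and Ifit3, Hspa1b, Hspa1a and Hspa1l separate by treatment within each organ, and Scd2 has the most negative difference of the cholesterol list.

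The 15 genes named for the largest positive differences began with Lilrb4 and Aqp1. Lilrb4, an inhibitory immunoglobulin-like receptor known from myeloid cells and activated lymphocytes, was at 15.6, 16.6 and 12.5 CPM in spleen, against 0.684, 1.48 and 0.676 CPM in lymph node (log2 difference 3.05, adjusted p = 1.55e-08). Lilr4b, a related gene whose reads may be shared, was at 10.1, 12.9 and 8.1 CPM in spleen, against 0.489, 0.718 and 0.50 CPM in lymph node (2.84). Klrg1, an inhibitory receptor of cadherins that marks differentiated T cells, was at 34.1, 17.4 and 24.5 CPM in spleen, against 4.13, 5.31 and 5.8 CPM in lymph node (2.07, 95% interval 1.70 to 2.44, adjusted p = 1.7e-06). In all 3 genes the lowest spleen value was above the highest lymph node value. Lilrb4 and Lilr4b were near or below 1 CPM in lymph node, as were the myeloid marker Lyz2 and Jchain, and the part of myeloid cells in their values was not tested.

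Aqp1, the water channel of red cells, was at 3.55, 3.38 and 29.1 CPM in spleen, against 0.195, 0.109 and 0.025 CPM in lymph node (log2 difference 2.93, adjusted p = 0.000944), with library 06 the highest as in the red cell markers. The difference was 1.99 without library 06 and 3.58 without library 05. Fn1 (fibronectin, 2.56), Plac8 (2.33), Lrp1 (an endocytic receptor, 2.14), Plek (pleckstrin, a substrate of protein kinase C, 1.86), Lyn (a Src-family kinase of B and myeloid cells, 1.80) and Atp6v0d2 (a proton pump subunit, 1.64) are also expressed by cells whose markers were higher in spleen. Asb2, a ubiquitin ligase subunit, was at 13.8 to 20.8 CPM in spleen against 1.63 to 4.03 CPM in lymph node (2.20), and Hic1, a transcriptional repressor, at 8.07 to 9.24 CPM against 1.53 to 2.61 CPM (1.58). Atf3, a stress-inducible transcription factor, was at 36.7, 43.9 and 39.7 CPM in spleen, against 9.09, 14.6 and 15 CPM in lymph node (1.59, adjusted p = 3.36e-08). The ranges of the organs were apart in each of these genes, and all 30 genes named by size kept their calls in the 6 fits with a library left out. Their choice by size in the same libraries favours this.

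**Figure D3:**
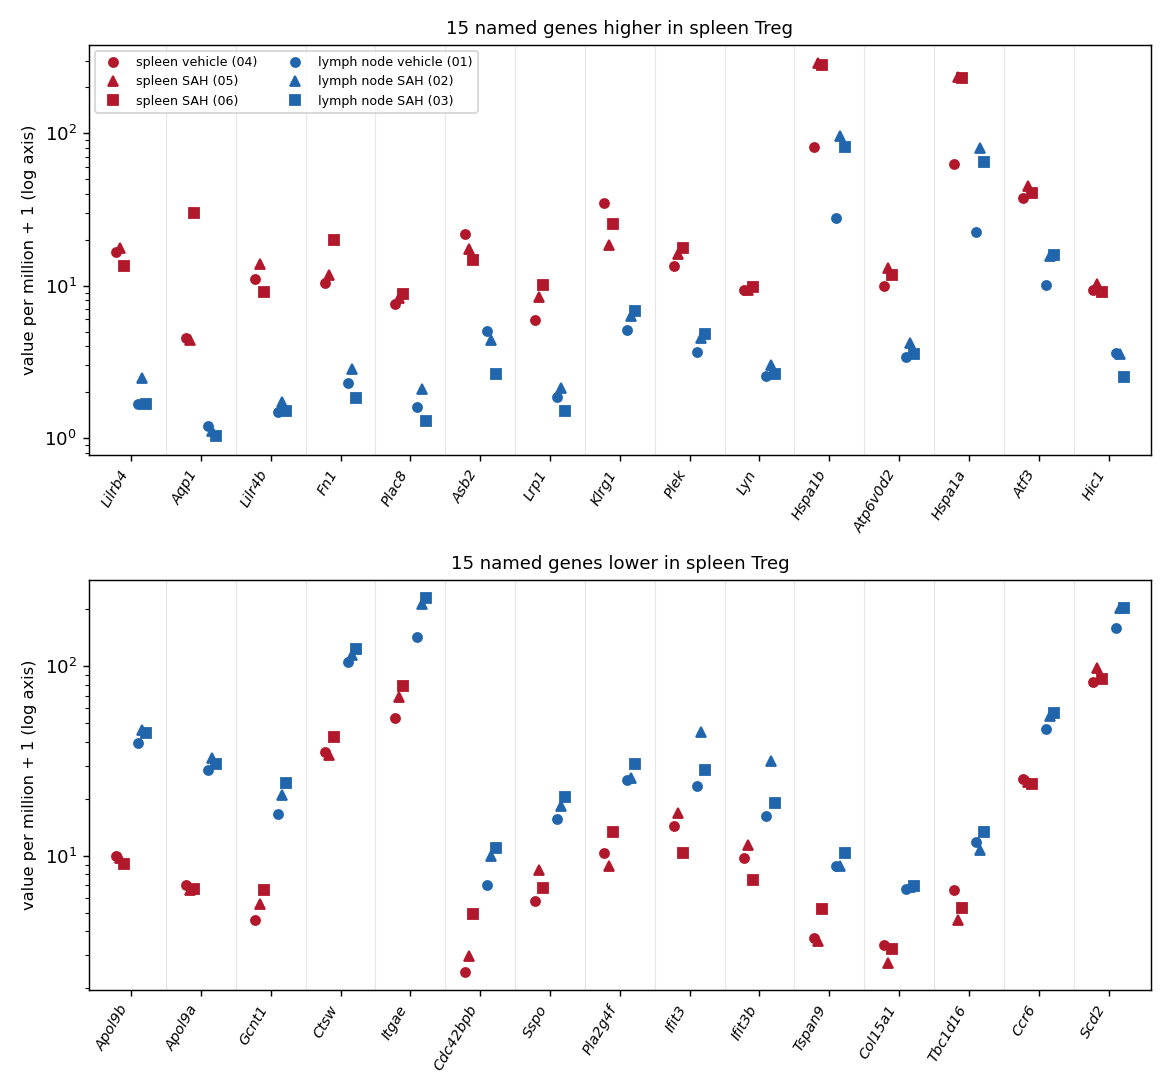
CPM + 1 on a log axis of the 15 genes with the largest positive (top) and negative (bottom) log2 differences, spleen (red) left of lymph node (blue), 1 symbol shape per library. The organs do not overlap except in Hspa1a and Hspa1b, where the spleen vehicle library lies below a lymph node SAH library.

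Among the lower genes, Itgae and Ccr6 encode receptors tied to epithelial sites. Itgae, the CD103 chain of the integrin that binds E-cadherin, was at 52.5, 68.1 and 77.3 CPM in spleen, against 141, 213 and 228 CPM in lymph node (log2 difference -1.53, 95% interval -1.66 to -1.40, adjusted p = 8.72e-10). Ccr6, the receptor of the chemokine CCL20, was at 24.4, 23.6 and 22.9 CPM in spleen, against 45.6, 53.5 and 55.9 CPM in lymph node (-1.09, adjusted p = 1.55e-07). Gcnt1, which builds the branched sugars of selectin ligands, was at 3.6, 4.6 and 5.62 CPM in spleen, against 15.6, 20 and 23.2 CPM in lymph node (-1.88, adjusted p = 1.55e-08). All spleen values of these 3 genes lay below all lymph node values. Ctsw, a protease known from cytotoxic lymphocytes, was at 33.1 to 41.2 CPM in spleen against 105 to 123 CPM in lymph node (-1.63). The remaining genes were the kinase gene Cdc42bpb (-1.48), Sspo (-1.38), the phospholipase gene Pla2g4f (-1.34), the tetraspanin gene Tspan9 (-1.18), the collagen gene Col15a1 (-1.14), Tbc1d16 (-1.13) and Scd2, which is described with the lipid genes.

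Of 21 Treg core genes, 2 were higher in spleen, 8 were lower and 11 did not pass, with a median log2 difference of -0.08. For this and the other lists, the shares over all genes were 8.71% higher and 6.01% lower. Il2ra, the CD25 chain of the interleukin-2 receptor, was at 589, 597 and 520.4 CPM in spleen, against 763, 742 and 788 CPM in lymph node. Its spleen values were all lower (log2 difference -0.43, 95% interval -0.55 to -0.30, adjusted p = 0.000182). Socs2, a feedback inhibitor of cytokine signalling, was at 25.4 to 32.5 CPM in spleen against 42.3 to 49 CPM in lymph node (-0.62). Ikzf4, the gene of the FOXP3 partner Eos, had a log2 difference of -0.59, the actin-capping gene Capg of -0.57 and Nrp1 (neuropilin-1) of -0.40. The 2 higher genes were Il10ra, an interleukin-10 receptor chain (0.26), and Lrrc32, which displays latent TGF-beta (0.19). Il10ra was not called without library 01, 03 or 04, nor Lrrc32 without 01, 02 or 04.

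Effector Treg genes were higher in spleen more often than lower. Of 35 measured, 17 were higher, 5 were lower (Itgae, Havcr2, Vim, Irf4 and Cd44) and 13 did not pass, with a median of 0.27. S100a6, a calcium-binding protein of migratory T cells, was at 55.3, 70.6 and 66.9 CPM in spleen, against 23.4, 34.8 and 34.3 CPM in lymph node (log2 difference 1.05, adjusted p = 5.78e-08). Areg, the growth factor amphiregulin of tissue-repair Treg, was at 28.6, 27.8 and 22.2 CPM in spleen, against 11.2, 14.7 and 16.3 CPM in lymph node (0.86, adjusted p = 0.000159). Il10, a suppressive cytokine, was at 51.5, 52.1 and 36.8 CPM in spleen, against 32.6, 30.4 and 23.5 CPM in lymph node (0.67, adjusted p = 0.000788). Spleen values were above lymph node values throughout in these 3 genes. Also higher were Lgals3 (galectin-3, 0.99), S100a4 (0.89), the transcriptional regulators Id2 (0.62) and Nfil3 (0.53), the interleukin-33 receptor gene Il1rl1 (0.57) and the inhibitory receptor gene Tigit (0.52). Havcr2, the gene of TIM-3, was at 2.05 to 2.47 CPM in spleen against 3.66 to 5.73 CPM in lymph node (-0.89). The higher members of the effector list ranged from 14 (without library 01 or 04) to 20 (without 06), and the lower members numbered 3 without 02 and 8 without 05.

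Genes of naive and central Treg had no common direction: of 24 measured, 4 were higher, 7 were lower and 13 did not pass, and 2 were higher without library 01, 02 or 04. Klf2, a factor that drives the egress receptor gene S1pr1, was at 357, 386 and 469 CPM in spleen, against 239, 282 and 329.7 CPM in lymph node, with no overlap (log2 difference 0.51, adjusted p = 0.000222), and Klf3 had a difference of 0.55. S1pr1 itself was at 401 to 477 CPM in spleen against 367 to 402 CPM in lymph node (adjusted p = 0.0688, but 0.00494 without library 05). The lymph node homing gene Ccr7 did not pass (log2 difference -0.04, 95% interval -0.31 to 0.23). Igfbp4, a binding protein of insulin-like growth factors, was at 66.2, 91.3 and 78.5 CPM in spleen, against 131, 134 and 141 CPM in lymph node (-0.79, adjusted p = 2.6e-06). The transcriptional regulators Id3 (-0.49) and Myb (-0.42) were lower too. A list of 20 factors of the KLF and TCF families also holds Id2 and Id3. Of these 20 genes, 7 were higher, Id2 among them, and 1, Id3, was lower.

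**Figure D4:**
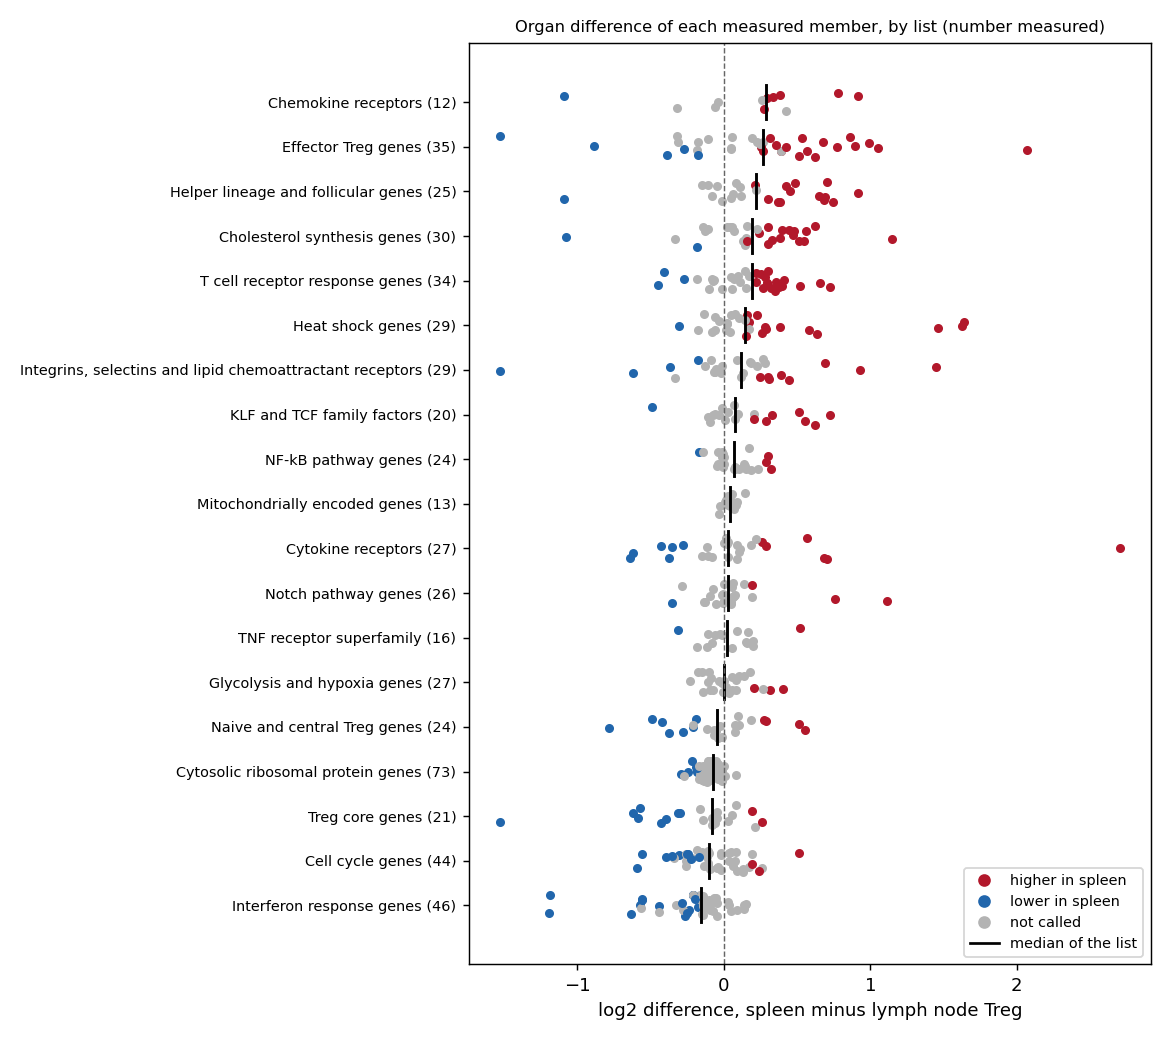
The log2 difference, spleen minus lymph node Treg, of each measured member of 19 gene lists (number measured in brackets), with members called higher in red, lower in blue and not called in grey, and a black bar at the median of each list. Medians run from 0.29 for chemokine receptors and 0.27 for effector Treg genes to -0.16 for interferon response genes.

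Of 12 measured chemokine receptors, 6 were higher in spleen and 1, Ccr6, was lower (3 and 2 without library 01 or without 04, and 7 and 2 without 05), with a median of 0.29. Cxcr3, the receptor of interferon-induced chemokines, was at 39.1, 44.2 and 39.5 CPM in spleen, against 19.7, 23.5 and 20.4 CPM in lymph node (log2 difference 0.92, adjusted p = 9.62e-07). Cxcr5, which leads cells into B cell follicles, was at 62.8, 69.7 and 56.9 CPM in spleen, against 50.8, 49.1 and 44.2 CPM in lymph node (0.38, adjusted p = 0.00263). The spleen values were the higher ones throughout. Of 29 measured integrins, selectins and lipid chemoattractant receptors, 8 were higher and 4 were lower (Itgae, Jaml, Gpr15 and Cd44). The higher ones include Itgam, which is also on the myeloid marker list. The higher and lower members numbered 4 and 3 without library 01 or 04, 3 and 2 without 02, 5 and 2 without 03, and 5 and 5 with libraries scaled to the same total.

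Gpr183 (EBI2), an oxysterol receptor that positions lymphocytes within the spleen, was at 112, 115 and 119.6 CPM in spleen, against 54.1, 62.2 and 64.3 CPM in lymph node (log2 difference 0.93, 95% interval 0.82 to 1.04, adjusted p = 2.73e-08). Itga4, the alpha chain of the VCAM-1 receptor, was at 1166, 1111 and 1076 CPM in spleen, against 764, 655 and 664 CPM in lymph node (0.69, adjusted p = 7.47e-07). The organs did not overlap in either gene. Jaml, a junctional adhesion molecule, was at 2.87 to 4.48 CPM in spleen against 4.25 to 7.73 CPM in lymph node (-0.62, adjusted p = 0.0017), with overlapping ranges.

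Of 25 measured helper lineage genes, 13 were higher in spleen, 1 (Ccr6) was lower and 11 did not pass, with a median of 0.22. With a library left out, the higher members ranged from 10 (without 01 or 04) to 14 (without 06). Tbx21, the gene of T-bet, which governs type 1 responses, was at 5.81, 7.84 and 5.19 CPM in spleen, against 3.08, 4.03 and 2.85 CPM in lymph node (log2 difference 0.75, adjusted p = 0.00298). Ifngr1, a chain of the interferon-gamma receptor, was at 316, 306 and 334 CPM in spleen, against 186, 197 and 212 CPM in lymph node (0.68, adjusted p = 8e-07). Both genes separated the organs. Ifng, the interferon-gamma gene, was at 12.2 to 14 CPM in spleen against 8.53 to 9.86 CPM in lymph node (0.48), the T-bet relative Eomes had a difference of 0.65, and Stat4, which relays interleukin-12 signals, of 0.45.

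Of 34 measured genes that T cell receptor signalling induces, 17 were higher in spleen, 3 were lower (Egr3, Dusp4 and Irf4) and 14 did not pass, with a median of 0.19. With a library left out, the higher members ranged from 12 (without 01 or 04) to 19 (without 06), and 5 were lower without 06. Klf6, a zinc-finger factor, was at 1108, 1197 and 1383 CPM in spleen, against 618, 721 and 907 CPM in lymph node (log2 difference 0.73, adjusted p = 2.97e-05). Fosl2, an AP-1 factor, was at 196, 219 and 195 CPM in spleen, against 101, 139 and 151 CPM in lymph node (0.66, adjusted p = 4.56e-05). Spleen values were above lymph node values in both. The AP-1 genes Jund (0.52) and Jun (0.41), the orphan receptor gene Nr4a1 (0.35) and the early activation marker Cd69 (0.30) were higher as well, whereas Egr3 (-0.45) and the MAP kinase phosphatase gene Dusp4 (-0.41) were lower.

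In the Notch pathway list 3 of 26 genes were higher (Dtx1, Dtx4 and Psen2) and 1, Lfng, was lower, or 2 without library 05 or 06. The share called was 15.4%, near the 14.7% over all genes, and the median was 0.027. Dtx1, a Notch-regulated ubiquitin ligase, was at 196, 206 and 215 CPM in spleen, against 92.7, 99.2 and 91.7 CPM in lymph node, with the spleen values far above (log2 difference 1.11, 95% interval 1.01 to 1.22, adjusted p = 2.98e-09). Its relative Dtx4 had a difference of 0.76, and Lfng, which modifies Notch receptors, of -0.35.

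Inducible HSP70 was higher in spleen under each treatment. Hspa1b and Hspa1a are neighbouring, near-identical HSP70 genes between which reads can be split. Hspa1b (17:34956436-34959238) was at 287 and 279.7 CPM in the spleen SAH libraries and 79.8 CPM in the spleen vehicle library, against 94.5 and 80.4 CPM in the lymph node SAH libraries and 26.6 CPM in the lymph node vehicle library. The organ ranges overlapped, since the spleen vehicle library was below a lymph node SAH library, but spleen was higher within each treatment. The log2 difference was 1.69 between the SAH libraries and 1.55 between the vehicle libraries (1.64 in the model, 95% interval 1.51 to 1.77, adjusted p = 7.12e-10). Hspa1a was at 233 and 229 CPM in spleen SAH and 62.1 CPM in spleen vehicle, against 78.6 and 63.4 CPM in lymph node SAH and 21.5 CPM in lymph node vehicle (1.63). Hspa1l, which lies beside them, had a difference of 1.46.

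Of 29 measured heat shock genes, 13 were higher in spleen, 1 (Hspa4l, not without library 01, 03 or 04) was lower and 15 did not pass, with a median of 0.15, and 8 were higher without library 01, 02 or 04. The co-chaperone gene Bag3 was at 41.3 to 46.9 CPM in spleen against 21.4 to 31.1 CPM in lymph node (log2 difference 0.64). The HSP110 gene Hsph1 (0.58), the HSP40 gene Dnajb1 (0.38) and Hspa5, the BiP chaperone of the endoplasmic reticulum (0.28), were also higher. Hspa8, the constitutive HSP70, was at 1645 to 1922 CPM in spleen against 1611 to 1800 CPM in lymph node (0.07, 95% interval -0.07 to 0.21).

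Cholesterol synthesis is governed by SREBP2, which raises the enzymes of the mevalonate pathway when membranes hold little sterol. Of 30 measured genes, 15 were higher in spleen, 2 were lower (Scd2 and Srebf1, 1 without library 02 or 05) and 13 did not pass, with a median of 0.19, and 9 were higher without library 02. Idi1, an isomerase of the pathway, was at 25.8, 30.6 and 32.6 CPM in spleen, against 15.8, 20.1 and 21.1 CPM in lymph node (log2 difference 0.62, 95% interval 0.48 to 0.76, adjusted p = 2.03e-05). The spleen values all lay above the lymph node values. Squalene epoxidase (Sqle, 0.56) and the SREBP anchor gene Insig1 (0.47) were higher too. Scd2, a fatty acid desaturase, was at 81.5, 97.1 and 85.2 CPM in spleen, against 158, 203 and 202 CPM in lymph node, with every spleen value lower (-1.08, adjusted p = 2.16e-08).

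The remaining lists had members in both directions or few called genes. Over all genes 14.7% were called. The share was 16.7% for NF-kB, 12.5% for TNF receptor family, 11.1% for glycolysis and hypoxia and 9.59% for ribosomal protein genes. It was 27.3% for cell cycle and 44.4% for cytokine receptor genes. Of 44 cell cycle genes, 3 were higher (Cdc25b, Cdt1 and Hmgb2) and 9 lower, with Cdc25b, a phosphatase of cyclin-dependent kinases, at 0.51 and Stmn1, a microtubule regulator, at -0.59. Without library 01, 02 or 04, 1 was higher, and without 06 it was 5, while 3 were lower without library 02 and 5 without 03. Of 27 cytokine receptor genes, 6 were higher and 6 lower, and the higher ones include the myeloid marker Csf1r, which had to differ. Tgfbr1, a TGF-beta receptor chain, was at 158 to 191 CPM in spleen against 265 to 282 CPM in lymph node (-0.62). Of 73 cytosolic ribosomal protein genes, 0 were higher and 7 lower, with 69 differences below 0 and a median of -0.08. Their lower count was 2 without library 01 or 04, 1 without 02 and 22 without 06, and it was 13 with equal totals and 20 with quantile normalization. NF-kB pathway genes gave 3 higher (Tnfaip3, Nfkbiz and Nfkbie) and 1 lower (Traf6) of 24, and 6 and 0 without library 05 or 7 and 2 without 06. Traf6 was also not called without library 01, 02, 03 or 04. Glycolysis and hypoxia genes gave 3 higher (Aldoc, Hif1a and Slc2a3) and 0 lower of 27, 1 higher without library 01, 02 or 04, and 5 higher and 1 lower without 05. TNF receptor family genes gave 1 higher (Tnfrsf8, not without library 01 or 04) and 1 lower (Tnfrsf4, not without library 02 or 03) of 16, with 2 higher without library 05 and 2 in each direction without 06. Of 13 mitochondrially encoded genes 0 were called, by limma on log2 values or with voom, and 1 (mt-Nd3) had an unadjusted p below 0.05.

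The organ difference was also compared between SAH and vehicle. Of 10405 genes, 1 had a called interaction (0.00961% of those tested), and 251 had an unadjusted p below 0.05. That gene, Mrpl33 of the mitochondrial ribosome, was chosen after its values were seen. It was at 21.5 and 20.8 CPM in spleen SAH and 12.2 and 11.1 CPM in lymph node SAH, against 12.7 CPM in spleen vehicle and 18.6 CPM in lymph node vehicle. The organ difference was 0.81 with SAH and -0.51 with vehicle, an interaction of 1.32 on the log2 scale (adjusted p = 0.0143). It was not called without library 02 (1.38, adjusted p = 0.482) or 03 (1.26, adjusted p = 0.987), where 0 genes were called, while 94 genes were called without library 05 and 42 without 06. With 1 vehicle library per organ, the interaction has 2 residual degrees of freedom.

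The organ difference of Treg was then set against that of Tcon in 1 model of all 12 libraries, over the 9784 genes of both tables. It was more positive in Treg in 36 genes (0.368%) and more negative in 107 (1.09%), 143 in all (1.46%), and 1190 had an unadjusted p below 0.05. With the library number as a block, which takes same-numbered Treg and Tcon libraries as pairs, the counts were 368 (3.76%) and 335 (3.42%), 703 in all (7.19%), and included all 143. The labels state no such pairing. In 69 of the 143 the organ difference was called in Treg and not in Tcon, in 35 in Tcon and not in Treg, and in 36 in both. Without 1 Treg library the total was 85 (01), 79 (02), 94 (03) and 87 (04), and without a Tcon library it was 287 (02) and 88 (03). It stayed within 1.5 times of 143 without each of the other 6. Every gene of the Tcon table, too, reached 1 CPM in at least 3 libraries. In 35 Tcon genes this held in all 3 spleen libraries and in no lymph node library, so that these genes had to differ in Tcon. The reverse held for 2 Tcon genes.

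Several genes of cytotoxic and type 1 T cells had a more positive organ difference in Tcon. Of 11 CD8 and natural killer genes measured in Tcon, 9 were higher in spleen (3.28% over all genes) and 0 lower, with a median of 2.14. Nkg7, Klrb1c and Ccl5 are on this list, and the part of other cells in these differences was not tested. Klrb1c reached 1 CPM in Tcon in spleen libraries only, so that it had to be higher there. Nkg7, a cytotoxic granule protein, was at 9.62, 12 and 11.4 CPM in spleen Treg, against 18.3, 22.4 and 19.4 CPM in lymph node Treg (log2 difference -0.81). In Tcon it was at 21.2, 14.8 and 16.3 CPM in spleen, against 1.36, 2.09 and 1.07 CPM in lymph node (2.88). The organs thus differed in opposite directions, and the difference between cell types was -3.69 (adjusted p = 1.69e-07). Cxcr6, a chemokine receptor of tissue T cells, was at 3.1 to 4.08 CPM in spleen Treg against 3.03 to 4.18 CPM in lymph node Treg (-0.06), and at 19.1 to 38.4 CPM in spleen Tcon against 2.63 to 3.49 CPM in lymph node Tcon (2.76), a difference of -2.82 between cell types (adjusted p = 2.46e-06).

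Ifng, Tbx21 and Cxcr3 were at log2 differences of 0.48, 0.75 and 0.92 in Treg and 2.64, 2.51 and 2.17 in Tcon, and each difference between cell types passed (adjusted p = 3.17e-06, 0.000354 and 0.000412). Socs2 was lower in spleen in Treg (-0.62) and higher in spleen in Tcon (1.78), a difference of -2.40 (adjusted p = 1.67e-06). In Tcon its values were low, at 2.54 to 3.73 CPM in spleen against 0.166 to 0.281 CPM in lymph node. Socs2 thus reached 1 CPM in Tcon in the 3 spleen libraries only, so that its Tcon difference had to be positive. Il2ra was at -0.43 in Treg and 0.45 in Tcon, where it reached only 3.85 to 6.94 CPM, a difference of -0.87 (adjusted p = 0.00244). Ctsw was at -1.63 in Treg and -0.34 in Tcon, a difference of -1.29 (adjusted p = 0.00029).

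In the other direction, Gpr183 was at 0.93 in Treg and 0.23 in Tcon, a difference of 0.70 (adjusted p = 6.09e-05), and Fosl2 at 0.66 and 0.02, a difference of 0.63 (adjusted p = 0.0075). For Apol9b and Scd2 the test between cell types did not pass, with or without the block. Apol9b was at -2.17 in Treg and -1.88 in Tcon (difference -0.29, adjusted p = 0.335, and 0.163 with the block), and Scd2 at -1.08 and -0.97 (-0.11, adjusted p = 0.695, and 0.356 with the block). Of 103 named genes tested between cell types, 18 were called without the block and all 18 with it, and 26 more were called only with it. Among these, Dtx1 was at 1.11 in Treg and 0.89 in Tcon (0.22, adjusted p = 0.129, and 0.0185 with the block). Hspa1b was at 1.64 in Treg and 0.94 in Tcon (0.70, adjusted p = 0.232, and 0.0215 with the block). Itga4 was at 0.69 in Treg and 0.41 in Tcon (0.27, adjusted p = 0.143, and 0.00622 with the block). The marker genes Slc4a1 (adjusted p = 0.773, and 0.000128 with the block), Jchain (0.445, and 0.0106) and Ca2, carbonic anhydrase of red cells (0.391, and 1.3e-06), belong to the same 26, as do Tbc1d16 (0.0804, and 0.00384) and Ikzf2 (0.162, and 0.000865). A p that misses the threshold does not show equal differences.

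**Figure D5:**
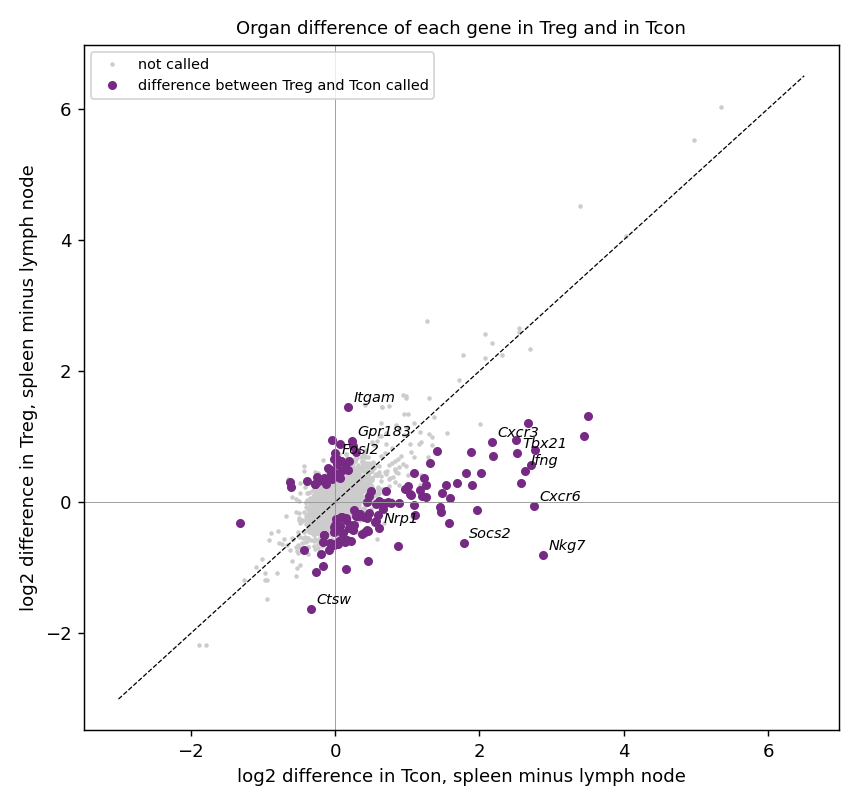
The log2 organ difference, spleen minus lymph node, of each of 9784 genes in Treg (vertical axis) and in Tcon (horizontal axis), with the 143 genes whose difference between cell types was called in purple and a dashed line where both are equal. Nkg7 and Socs2 lie below 0 in Treg and above 0 in Tcon, and Itgam, Gpr183 and Fosl2 lie above the line.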

How the data were processed

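Stranded mRNA libraries were made from sorted Treg and Tcon, per the labels' protocols. The submitters' processing notes name TopHat, Bowtie, edgeR and the build mm10; versions, counting and annotation were not stated. The authors deposited 1 table per cell type with a normalized signal per gene and library, called CPM per the file headers. Library totals ran from 971928 to 1.02143e+06, so a scaling factor beyond the total is in the values. Every value lay within 0.1 of a whole number of reads.

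Here log2(CPM + 1) values were fitted with limma 3.58.1 in R 4.3.3, using moderated variances with an intensity trend and two-sided tests. Residual degrees of freedom were 3 for organ with a treatment term, 2 for the interaction and 6 for Treg minus Tcon. Genes were called at an adjusted p below 0.05. Differences are smaller than true log2 folds for low genes. The steps were tested on simulated data. Levels were not tested between the separately normalized tables.

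The members and gene lists were chosen with earlier results of these data known. By rule, the 15 called genes with the largest difference in each direction were named if they averaged at least 5 CPM in the higher organ and were no marker or clone symbol, with list members beside them. Of the symbols, 95.9% matched GENCODE M21, the source of mm10 coordinates; 284 share all values with another symbol and 13 are date-like. Residuals of same-numbered Treg and Tcon libraries correlated at 0.286 to 0.537, and those of unlike-numbered libraries at up to 0.267 (Treg 02 with Tcon 05). The value of 0.286 is shared by 01 and 04, whose residuals mirror each other in this fit. The labels state no pairing, so taking the library numbers as pairs is an assumption. SAH libraries of 1 organ differed beyond counting noise (chi-square 20.9 and 9.15 per degree of freedom).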

Additional observations from a re-analysis of the deposited data

Results flagged for a closer look

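The organ difference of Treg differed from that of Tcon in 18 named genes, given here as Treg minus Tcon on the log2 scale. It was negative for Nkg7 (-3.69), Cxcr6 (-2.82), Klrb1c (-2.43), Socs2 (-2.40), Ccl5 (-2.19), Ifng (-2.15), Tbx21 (-1.77), Ctsw (-1.29), Cxcr3 (-1.25), Nrp1 (-1.0), Il2ra (-0.87), Stmn1 (-0.81), Myb (-0.67), Igfbp4 (-0.60) and Tgfbr1 (-0.55). It was positive for Itgam (1.27), Gpr183 (0.70) and Fosl2 (0.63). Of the 18 genes, which were picked because they were called, 17 kept their call in all 12 fits with a library left out. Nrp1 lost it in 9 of them, with an adjusted p of up to 0.15. With SAH libraries only, Nrp1, Igfbp4 and Fosl2 were not called.

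The natural killer receptor gene Klrb1c was at 3.38 to 3.91 CPM in spleen Treg against 1.08 to 1.44 CPM in lymph node Treg, and at 10.9 to 23.6 CPM in spleen Tcon against 0.332 to 0.664 CPM in lymph node Tcon. In Tcon, Klrb1c and Socs2 reached 1 CPM in spleen libraries only, so that these genes had to differ there. The chemokine gene Ccl5 was at 7.41 to 8.44 CPM in spleen Treg against 2.38 to 3.0 CPM in lymph node Treg, and at 20.1 to 23.7 CPM in spleen Tcon against 0.40 to 2.18 CPM in lymph node Tcon. Itgam, an integrin chain of myeloid cells, was at 4.96 to 7.91 CPM in spleen Treg against 1.42 to 1.98 CPM in lymph node Treg, and at 5.81 to 6.97 CPM in spleen Tcon against 5.44 to 5.88 CPM in lymph node Tcon.

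Mrpl33 was the 1 gene with a called interaction of organ and treatment (1.32). It rests on 1 vehicle library per organ and was not called without library 02 (adjusted p = 0.482 by limma) or 03 (0.987), while 94 genes were called without 05 and 42 without 06.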

How the results depend on the processing

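Of 117 named genes with a called organ difference, 110 kept it under every setting tried and 112 in all 6 fits with a library left out, and 0 changed direction. These genes were named with results of the same data known, which favours keeping the call. Over all genes the total fell from 1531 to 768 without library 02. The calls of Dnajb1 (no treatment term), Hbbt1 (voom on rebuilt reads, added after seeing the data) and Alas2 (without library 02, quantile normalization, no intensity trend and voom) were lost, as were those of Ifit1 and Oasl2 with no intensity trend, of Il10ra with SAH libraries only and no intensity trend, and of Lrrc32 with these, equal totals, quantile normalization and no treatment term, beside the left-out libraries given above. The 906 higher and 625 lower genes became 453 and 335 with SAH libraries only, and 593 were higher with no intensity trend; with a library left out they ranged from 450 to 1091 and from 290 to 739. The interaction gave 2 higher genes with a pseudocount of 0.1 and 2 with a minimum of 5 CPM in 3 libraries, and 0 to 38 higher and 0 to 56 lower with a library left out. Treg minus Tcon gave 15 and 52 genes with SAH libraries only, 368 and 335 with the replicate block, and 15 to 129 higher and 62 to 158 lower with a library left out. Of 9 named genes that were not called, 3 changed sign: Ikzf2 (-0.0029 with equal totals, -0.053 with quantile normalization, and -0.044 to 0.11 with a library left out), Ccr7 (-0.29 to 0.13) and Cxcr6 (-0.26 to 0.031). Calls were gained by Ctla4 without library 06, S1pr1 without 05 and Mrpl33 without either vehicle library and with SAH libraries only. edgeR and DESeq2 were not run, since the deposited values are normalized. The cause of these changes was not tested. A gene at 1 CPM rests on about 40 reads per library, and the organ test has 3 residual degrees of freedom.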

Other observations

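The gene groups below were put together after values had been seen, so their counts are descriptions. Of 27 measured TGF-beta signalling genes, 5 were higher in spleen Treg and 15 were lower, with a median log2 difference of -0.22 (1 higher and 11 or 12 lower without library 01, 02 or 04; 2 and 15 with libraries scaled to the same total). Smad7, the feedback inhibitor of the pathway, was at 213, 217 and 233 CPM in spleen, against 300.2, 298 and 319 CPM in lymph node (-0.47). Skil, a repressor of SMAD factors, was at 328 to 407 CPM in spleen against 497 to 569 CPM in lymph node (-0.51), and Pmepa1, another feedback inhibitor, at 16.2 to 19.2 CPM against 27.9 to 29.7 CPM (-0.68). Itgae, which TGF-beta induces, belongs to the same group.

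Targets of the sterol receptor LXR counted 1 higher and 4 lower of 12. The cholesterol exporter gene Abca1 was at 46.7, 59.3 and 54.9 CPM in spleen, against 91.4, 132 and 123 CPM in lymph node (-1.08), and Abcg1, its partner in sterol export, at 148 to 156 CPM against 216 to 259 CPM (-0.65). Every spleen value was lower in both.

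Of 8 GIMAP genes, GTPases of lymphocyte survival, 6 were higher in spleen and 0 lower, with Gimap7 at 119.8, 104 and 90.3 CPM in spleen, against 63, 52.5 and 40.4 CPM in lymph node (1.01), and Gimap6 at 0.62. All 5 measured genes of the NAIP inflammasome group were higher, with Naip5 at 58.6 to 60.5 CPM in spleen against 27.8 to 33.6 CPM in lymph node (0.93) and Naip6 at 0.86. All 6 genes of a group of ART2 ecto-enzymes and multidrug transporters were higher as well. Abcb1a, a multidrug efflux pump, was at 119.7, 103 and 95.8 CPM in spleen, against 42.7, 43.4 and 37.8 CPM in lymph node (1.34), and Art2a and Art2b had log2 differences of 1.03 and 0.89. The higher members numbered 5 in the GIMAP group without library 01, 02, 03 or 04. They numbered 4 in the NAIP group without 01, 03 or 04, and 5 in the ART2 and transporter group without 02. Reads may be shared within the GIMAP, NAIP and ART2 families.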
